A study of Mus musculus with 219 samples.

Results

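The translation initiation factor genes were taken as every gene whose symbol in the deposited gene list starts with Eif followed by a digit from 1 to 6. This gave 56 of 32285 genes, and their amounts were followed by site of sperm injection and by sister in 2-cell mouse embryos, in blastocysts from separated blastomeres (twins) and from undivided embryos (intact), and between the stages. All 56 had a count in at least 1 blastomere and 55 had a count in at least 1 blastocyst. Eif2c5, a long noncoding RNA that carries an older Argonaute-type name and encodes no initiation factor, had a count in 1 of 110 blastomeres and in 0 of 69 blastocysts. Eif2ak2, the kinase activated by double-stranded RNA, had a count in 13 of 110 blastomeres and 55 of 69 blastocysts. Those 2 genes were the members under the filter on low counts at the 2-cell stage, where 54 were tested.

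All embryos shared a genotype, B6C3F1xCD1: oocytes of young B6C3F1 females received sperm heads of CD1 males by intracytoplasmic sperm injection (ICSI), so every group went through injection. The sperm head was placed opposite the meiotic spindle at the vegetal pole (contralateral), beside the spindle at the animal pole (ipsilateral, written isolateral in the labels), or midway (equatorial). The 2-cell embryos were cut in 2 on the day after ICSI and each sister blastomere was sequenced, and 55 pairs were used, 21 contralateral, 21 ipsilateral and 13 equatorial. Other blastomeres were cultured singly to twin blastocysts, of which 19 pairs were sequenced (6 contralateral, 7 ipsilateral, 6 equatorial), beside 31 intact blastocysts (11, 8 and 12). The embryo was the replicate in comparisons of groups, with the counts of both sisters or both twins added. Sisters and twins were kept apart where they are compared with each other or counted as libraries. Nothing in the labels ties an embryo to a mother, so p-values measure the spread between these embryos.

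Translation of most mRNAs starts when a small ribosomal subunit, loaded with eIF1, eIF1A, eIF3, eIF5 and the eIF2 complex that carries the initiator methionine tRNA, is brought to the capped end of an mRNA. The cap is bound by eIF4E, which joins the scaffold eIF4G and the RNA helicase eIF4A, and the 4E-binding proteins compete with eIF4G for eIF4E. Kinases that phosphorylate eIF2 slow this process by blocking the exchange factor eIF2B. An oocyte stores mRNAs whose translation is held back or released through their tails, and the 2-cell embryo of the mouse replaces this store with transcripts of its own genome.

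Amounts are given as CPM, a gene's counts scaled to a common library total, when samples are compared, and as TPM, which also divides by exonic length, when genes are compared. Total counts ranged from 360474 to 2100561 in the 110 blastomeres, from 713410 to 2161062 in the 38 twins and from 234099 to 1254428 in the 31 intact blastocysts. The labelled stages held their defining transcripts: the 5 oocyte-derived transcripts (Gdf9, Bmp15, Zp3, Oosp1 and Dppa3) had a median summed level of 3663 CPM in 2-cell embryos, and the 5 trophectoderm markers (Cdx2, Gata3, Krt8, Krt18 and Tfap2c) one of 3059 CPM in intact and 3010 CPM in twin blastocysts. Of the 6 cumulus and granulosa markers, none had a median above 0 in any of the 3 kinds of embryo. The tests were edgeR quasi-likelihood tests with Benjamini-Hochberg adjustment over all genes tested, and a gene is called at an adjusted p under 0.05.

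The stage comparison asked which factors the 2-cell embryo holds in larger or smaller shares than the blastocyst. Of 54 members tested, 14 were higher in the 55 2-cell embryos and 28 were higher in the 31 intact blastocysts, so that 42 were called, where the share called over all 12645 genes was 77.1% (45.9% higher and 31.2% lower at the 2-cell stage). The median log2 fold change, 2-cell over blastocyst, was -0.51 over the members and 0.41 over all genes tested. With library totals in place of the composition factors, the all-gene median moved to 0.10 and the members' calls to 10 higher and 32 lower. Calls over all 12645 genes moved the same way, from 5802 higher and 3942 lower to 5293 higher and 4579 lower (78.1% called). Summed over all members, 2-cell embryos held 9523 ± 502 CPM (SD, n = 55), intact blastocysts 15690 ± 1481 CPM (n = 31) and twin blastocysts 15762 ± 584 CPM (n = 19). The highest 2-cell embryo, at 10548 CPM, lay under the lowest intact blastocyst, at 13306 CPM. In whole embryos, fewer cells of a type and less RNA per cell cannot be told apart.

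**Figure D1:**
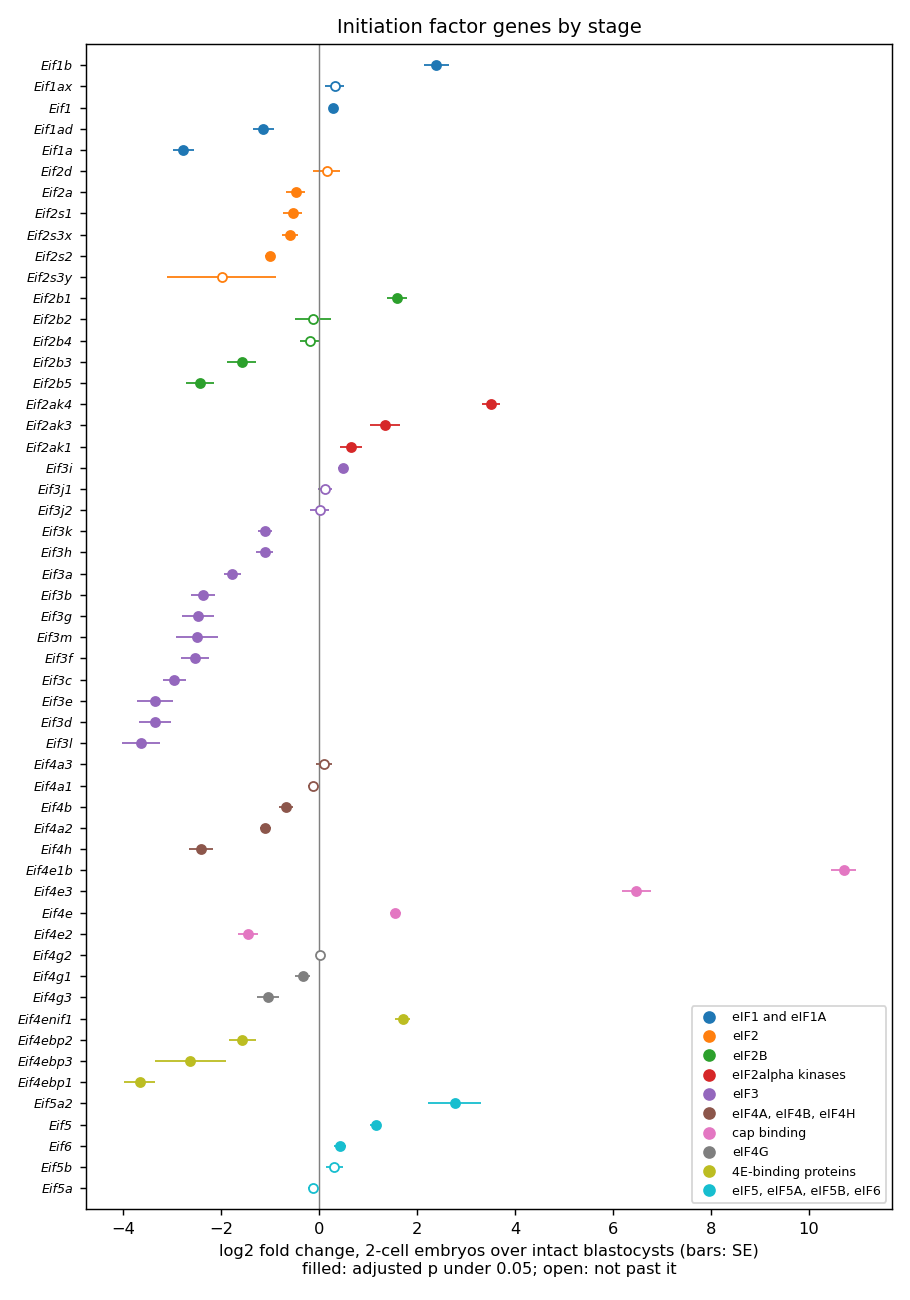
Log2 fold change of each of the 54 members tested, 2-cell embryos over intact blastocysts, with a standard error back-calculated from the test statistic, grouped by role. Points right of 0 are higher at the 2-cell stage, filled points pass the test (adjusted p under 0.05), and 11 of the 14 eIF3 subunits lie left of -1, while Eif4e1b, Eif4e3 and Eif2ak4 lie farthest right.

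The cap-binding proteins made up the group with the largest differences. Eif4e1b, a cap-binding protein of oocytes, had counts in all 55 2-cell embryos, from 53.6 to 301 CPM with a median of 144. In intact blastocysts it had 1 count in 31 embryos and in twins 8 counts in 19 embryos, against 20705 counts in the 2-cell embryos. The ratio of the pooled CPM, 2-cell over intact, was 3109, with an exact 95% interval from 557.9 to 122800 that covers counting error only. The fitted log2 fold change of 10.71 (adjusted p = 6.05e-60) depends on the prior count added to a group this close to 0. Its SE of 0.25 was back-calculated from the test statistic and does not cover the uncertainty of so few counts.

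Eif4e3, a cap-binding protein that binds the cap in another way than eIF4E, ran from 191 to 566 CPM (median 299) in 2-cell embryos and from 0 to 51.1 CPM (median 1.43) in intact blastocysts. No 2-cell embryo overlapped the blastocysts, and the fold was 88.9 (log2 fold change 6.47, SE 0.29, adjusted p = 7.01e-37). Eif4e itself, the main cap-binding protein, had a median of 621 CPM (303 to 800) at the 2-cell stage and 269 CPM (32.1 to 424) in intact blastocysts, and 53 of 55 2-cell embryos lay above every blastocyst (log2 fold change 1.56, SE 0.12, adjusted p = 2.38e-21). Eif4e2, which binds the cap without recruiting eIF4G, went the other way, with 25.0 to 134 CPM against 141 to 430 CPM (log2 fold change -1.45, SE 0.21, adjusted p = 1.11e-09).

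Compared per length, the order of the cap-binding genes differed between stages. At the 2-cell stage, Eif4e3 stood at 402 ± 108.1 TPM (SD, n = 55), Eif4e at 335 ± 51.8, Eif4e1b at 215 ± 78.5 and Eif4e2 at 30.4 ± 12.7. The first 3 of these levels overlapped between embryos, and Eif4e2 lay apart. In intact blastocysts, Eif4e stood at 121.6 ± 39.7 TPM and Eif4e2 at 94.7 ± 25.0 (n = 31), within each other's spread, and Eif4e3 at 5.12 ± 11.4. The summed level of the group was 983 ± 139 TPM at the 2-cell stage and 221 ± 43.6 TPM in intact blastocysts.

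Of the 4 genes for proteins that bind eIF4E and keep it from eIF4G, 1 was higher and 3 were lower at the 2-cell stage. Over all genes, 45.9% were called higher and 31.2% lower. Eif4ebp1, a 4E-binding protein switched off by mTOR, had 3.19 to 152 CPM (median 44.6) in 2-cell embryos and 239 to 1078 CPM (median 560) in intact blastocysts, with no overlap (log2 fold change -3.67, SE 0.32, adjusted p = 2.96e-18). Eif4ebp3 had a median of 2.77 CPM (0 to 27.1) against 32.005 CPM (0 to 73.2), with overlap, since some blastocysts had no count (log2 fold change -2.63, SE 0.73, adjusted p = 0.0008). Eif4ebp2 fell on the same side, by a log2 fold change of -1.57. Eif4enif1, the eIF4E transporter found with stored mRNAs in oocytes, was the exception, at 174 to 584 CPM (median 294) against 27.01 to 244 CPM (median 110; log2 fold change 1.70, SE 0.15, adjusted p = 6.9e-19).

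The subunits of eIF3, the large complex that holds the ribosomal subunit to the mRNA, were lower as a group at the 2-cell stage. Of the 14 tested, 11 were lower at the 2-cell stage (beside 31.2% of all genes), 1 was higher (Eif3i, log2 fold change 0.49, not called with library totals) and 2 were not called (Eif3j1 and Eif3j2). Summed, they stood at 1167 ± 231 TPM in 2-cell embryos, 3685 ± 618 TPM in intact blastocysts and 3468 ± 141 TPM in twins, and the highest 2-cell embryo (1636 TPM) lay under the lowest intact blastocyst (2468 TPM). The largest differences were those of Eif3l (log2 fold change -3.63, SE 0.38), Eif3d (-3.35, SE 0.33), Eif3e (-3.35, SE 0.37), Eif3c (-2.96, SE 0.24) and Eif3f (-2.53, SE 0.29).

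Eif3l had 0 to 44.99 CPM (median 11.7) in 2-cell embryos and 136 to 561 CPM (median 215) in intact blastocysts. Eif3d had 0.311 to 40.7 CPM (median 18.6) against 119.2 to 397 CPM (median 217), and Eif3e had 0 to 69.4 CPM (median 22.8) against 148 to 389 CPM (median 270). Eif3c, a core subunit, had 27.9 to 432 CPM (median 158) against 470 to 1803 CPM (median 1107). In none of these did a 2-cell embryo reach the lowest blastocyst. In all, 14 of 54 members lay wholly below the blastocysts (25.9%, against 5.4% of all genes), 8 of them eIF3 subunits, and 3 lay wholly above (5.56%, against 9.85%).

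Promoter windows from 250 bases before to 50 after the transcription start (RefSeq, GRCm38.p6) were held by the reference for 44 members, with 57 windows among them. The letters CCGGAAG on either strand, the core that ETS-family factors bind, were in 19 of these windows (33.3%), belonging to 16 members, and in 8.86% of all 32851 windows. The GC box GGGCGG was in 70.2% of members' windows against 35.7% of all, the E-box CACGTG in 21.1% against 7.15%, and TATAAA in 7.02% against 13.6%. All were searched on both strands, and none of these motifs contains another. Among 10 eIF3 subunits with a window, 5 held CCGGAAG and were lower at the 2-cell stage, as were 4 of the 5 without it (Eif3a, Eif3b, Eif3f, Eif3j1 and Eif3k). The windows that hold it are printed 5′ to 3′ on the gene's strand, with each CCGGAAG or its reverse complement CTTCCGG in capitals. The motif starts 34 and 68 bases before the start in Eif3c, and 70, 44, 35 and 55 bases before it in Eif3d, Eif3g, Eif3l and Eif3m. A match is a description of the sequence, and no binding was measured.
Eif3c, chr7:126566317-126566616, minus strand: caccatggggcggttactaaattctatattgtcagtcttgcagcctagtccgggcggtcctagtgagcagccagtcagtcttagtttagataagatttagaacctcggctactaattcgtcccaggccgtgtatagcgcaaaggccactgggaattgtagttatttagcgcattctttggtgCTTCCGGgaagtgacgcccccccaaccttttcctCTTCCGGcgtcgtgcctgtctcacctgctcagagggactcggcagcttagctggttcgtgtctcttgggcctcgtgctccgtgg
Eif3d, chr15:77970775-77971074, minus strand: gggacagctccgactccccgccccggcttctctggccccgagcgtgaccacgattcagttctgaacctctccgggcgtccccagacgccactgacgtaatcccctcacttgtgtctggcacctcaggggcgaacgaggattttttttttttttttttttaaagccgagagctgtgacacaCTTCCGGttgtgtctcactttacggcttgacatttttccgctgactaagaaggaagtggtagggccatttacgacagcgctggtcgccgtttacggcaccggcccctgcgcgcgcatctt
Eif3g, chr9:20898541-20898840, minus strand: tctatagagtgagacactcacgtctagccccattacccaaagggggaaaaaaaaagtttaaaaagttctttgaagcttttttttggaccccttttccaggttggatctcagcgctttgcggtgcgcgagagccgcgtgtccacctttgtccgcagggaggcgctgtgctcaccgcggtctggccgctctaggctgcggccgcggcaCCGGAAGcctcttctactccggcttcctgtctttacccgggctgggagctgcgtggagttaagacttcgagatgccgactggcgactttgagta
Eif3l, chr15:79074973-79075272, plus strand: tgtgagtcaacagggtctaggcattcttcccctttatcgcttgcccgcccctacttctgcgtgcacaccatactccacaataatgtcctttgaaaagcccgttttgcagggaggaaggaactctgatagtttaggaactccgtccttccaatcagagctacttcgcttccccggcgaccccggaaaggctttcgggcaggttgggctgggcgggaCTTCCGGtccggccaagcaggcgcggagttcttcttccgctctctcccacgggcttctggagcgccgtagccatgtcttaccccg
Eif3m, chr2:105016978-105017277, minus strand: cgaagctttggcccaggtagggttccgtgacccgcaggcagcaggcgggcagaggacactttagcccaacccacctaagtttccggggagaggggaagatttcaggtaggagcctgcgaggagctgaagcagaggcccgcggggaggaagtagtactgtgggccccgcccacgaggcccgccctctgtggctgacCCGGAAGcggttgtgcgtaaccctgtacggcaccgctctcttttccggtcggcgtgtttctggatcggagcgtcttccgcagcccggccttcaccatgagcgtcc

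The eIF1 and eIF1A genes, whose products scan for the start codon, split. Eif1a, an early zygotic gene on chromosome 18, had 17.97 to 151 CPM (median 74.9) in 2-cell embryos and 266 to 828 CPM (median 644) in intact blastocysts, with no overlap (log2 fold change -2.77, SE 0.22, adjusted p = 1.19e-20). Its X-linked paralog Eif1ax did not differ past the test, at a median of 127.01 CPM (39.8 to 198) against 106.4 CPM (24.04 to 247; log2 fold change 0.32, SE 0.19, adjusted p = 0.119). Eif1ad, a gene for a protein with an eIF1A-like domain, was lower at the 2-cell stage (log2 fold change -1.14, SE 0.21). Eif1 passed the test with a small difference (log2 fold change 0.28, SE 0.08) that fell to -0.02 with library totals. Eif1b, a paralog of Eif1, had 73.97 to 408 CPM (median 166) against 0 to 202 CPM (median 33.5; log2 fold change 2.40, SE 0.25, adjusted p = 3.66e-15). Paralogs as close as Eif1a and Eif1ax, or Eif3j1 and the intronless Eif3j2, can share reads, and how the counting split them was not tested.

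Among the eIF2 genes and their regulators, 3 of the 4 kinase genes were higher and 4 of 6 eIF2 genes were lower at the 2-cell stage. Over all genes, 45.9% were called higher and 31.2% lower. The other kinase gene, Eif2ak2 (PKR), was under the low-count filter and had a mean of 1.12 CPM in 2-cell embryos and 7.47 CPM in intact blastocysts. The 3 kinases tested were higher, Eif2ak1 with the composition factors but not with library totals. Eif2ak4 (GCN2), which senses uncharged tRNA, had 106.9 to 263 CPM (median 177) in 2-cell embryos and 0 to 57.1 CPM (median 16.7) in intact blastocysts, with no overlap (log2 fold change 3.50, SE 0.19, adjusted p = 4.78e-32). Eif2ak3 (PERK), the kinase of the endoplasmic reticulum, and Eif2ak1 (HRI), which responds to heme, had log2 fold changes of 1.35 (SE 0.31) and 0.65 (SE 0.22).

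Of the 6 eIF2 genes, 4 were lower at the 2-cell stage (beside 31.2% of all genes) and 2 were not called. They were grouped by symbol and include Eif2a and Eif2d, which encode no subunit of the eIF2 complex. The beta subunit gene Eif2s2 stood at 423 to 829.2 CPM against 1042 to 2559 CPM, with no overlap (log2 fold change -1.001, SE 0.10). The X-linked gamma subunit gene Eif2s3x had a median of 140 CPM (45.9 to 292) against 307 CPM (165 to 666; log2 fold change -0.60, SE 0.17, adjusted p = 0.000773). The 5 subunits of eIF2B moved in both directions. Eif2b1, the regulatory alpha subunit, was higher, with 68.2 to 454 CPM (median 280) against 15.8 to 225 CPM (median 113; log2 fold change 1.59, SE 0.20, adjusted p = 2.72e-11). Eif2b5, the catalytic epsilon subunit, was lower (log2 fold change -2.44, SE 0.28), as was Eif2b3 (-1.58, SE 0.30), and Eif2b2 and Eif2b4 were not called.

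In the helicase group, Eif4h, Eif4a2 and Eif4b were lower at the 2-cell stage, with log2 fold changes of -2.42, -1.10 and -0.68. Eif4a1, the main helicase of the cap complex, was not called, with a median of 341 CPM (240 to 462) against 527 CPM (373 to 867; log2 fold change -0.13, SE 0.09, adjusted p = 0.159). With library totals in place of the composition factors its log2 fold change was -0.43 and passed the test. Of the scaffolds, Eif4g3 and Eif4g1 were lower (-1.05 and -0.33) and Eif4g2 was not called. Of the genes for eIF5, eIF5A, eIF5B and eIF6, 3 were higher (beside 45.9% of all genes), Eif5a2 (2.76, SE 0.54), Eif5 (1.15, SE 0.12) and Eif6 (0.42, SE 0.12), the last not called with library totals (0.12) or against twins (-0.18). Eif5a2 had 0 to 82.1 CPM (median 24.02) against 0 to 25.6 CPM (median 3.43), with overlap.

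Other genes of translation were taken from a list of 38, of which 37 were tested, with 11 higher and 19 lower at the 2-cell stage, where 77.1% of all genes were called. The higher ones included Pabpc1l (log2 fold change 5.66), the poly(A)-binding protein of oocytes and early embryos, Dazl (5.20) and Cpeb1 (3.65), RNA-binding proteins of stored mRNAs, and Paip1 (3.80), a partner of poly(A)-binding protein. The lower ones included Rps6kb2 (-4.36), a kinase of ribosomal protein S6, the elongation factors Eef1g (-4.19), Eef2 (-2.12) and Eef1a1 (-2.10), Larp1 (-3.29), a repressor of ribosomal protein mRNAs, and Pabpc1 (-1.59), the somatic poly(A)-binding protein. The others called higher were Pabpc4, Paip2b, Ddx3x, Eef2k, Hbs1l, Ppp1r15a and Rps6kb1. The others called lower were Mcts1, Abce1, Rps6, Gcn1, Eef1b2, Eef1e1, Eef1d, Mknk1, Mknk2, Ppp1r15b, Denr, Gspt1 and Etf1. Mcts2, Mtor, Rptor, Pelo, Impact, Paip2 and Pdcd4 were not called, and Ddx3y was not tested.

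The 2-cell embryos of the 3 ICSI groups were compared at the embryo level. Between contralateral and equatorial ICSI, 13 of 54 members were called, 4 higher and 9 lower after contralateral ICSI, where 13.2% of all 13141 genes tested were called (7.12% higher and 6.06% lower). Between ipsilateral and equatorial ICSI, 4 of 54 were called, 3 higher and 1 lower, where 6.65% of all genes were called (3.43% higher and 3.22% lower). At an unadjusted p under 0.05 there were 23 members in the first comparison (26% of all genes) and 22 in the second (19.6%). Between the 2 poles, edgeR in the reported fit called 0 of 54 members and 0 of all genes. There, 4 members, beside 4.22% of all genes, had such an unadjusted p. Without the low-count filter, edgeR called 1 of 56 members between the poles, beside 6.32% of 24964 genes. DESeq2 called 0 members and 0.452% of 22570 genes there, and a permutation rank-sum test on TPM called 0 members and 0 genes. That rank-sum test gave another split against equatorial ICSI, 2 members higher and 15 lower for contralateral and 2 higher and 8 lower for ipsilateral ICSI. Of all 13126 genes it called 838 higher and 1335 lower in the first (16.6%) and 683 higher and 849 lower in the second (11.7%). Contralateral and ipsilateral ICSI were both set against the same 13 equatorial embryos.

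Eif2b1, the alpha subunit of eIF2B, had the smallest adjusted p against equatorial ICSI at either pole. It had 95.5 to 454 CPM (median 309) after contralateral ICSI, 166 to 452 CPM (median 296) after ipsilateral ICSI and 68.2 to 262 CPM (median 155) after equatorial ICSI. The groups overlapped, but 20 of 21 contralateral and 21 of 21 ipsilateral embryos lay above the equatorial median. Its log2 fold changes over equatorial ICSI were 1.02 (SE 0.16, adjusted p = 2.38e-05) and 0.94 (SE 0.17, adjusted p = 0.0003).

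Eif4e was higher after ICSI at either pole, with 303 to 800 CPM (median 673) contralateral, 472 to 771 CPM (median 662) ipsilateral and 412 to 706 CPM (median 488) equatorial. The log2 fold changes were small, 0.35 (SE 0.08, adjusted p = 0.00281) and 0.32 (SE 0.09, adjusted p = 0.0137), and 19 of 21 and 20 of 21 embryos lay above the equatorial median. Eif1b had 103 to 352 CPM (median 202) contralateral, 99.8 to 408 (median 166) ipsilateral and 73.97 to 256 (median 131.2) equatorial, and passed the test for contralateral ICSI alone (log2 fold change 0.58, SE 0.17, adjusted p = 0.0111; ipsilateral 0.31, adjusted p = 0.293). The difference between those 2 comparisons is that of contralateral and ipsilateral ICSI, 0.27, which was not called.

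Eif4g1, the main scaffold of the cap complex, was lower after contralateral ICSI. It had 68.2 to 356 CPM (median 154) there, 109.1 to 281 CPM (median 192) after ipsilateral ICSI and 143 to 349 CPM (median 281) after equatorial ICSI, and 20 of 21 contralateral embryos lay below the equatorial median. The log2 fold change was -0.76 (SE 0.15, adjusted p = 0.000241). After ipsilateral ICSI it was -0.43 and missed the threshold (SE 0.15, adjusted p = 0.0743), although 21 of 21 embryos lay below the equatorial median.

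The kinase gene Eif2ak3 had 14.5 to 56.7 CPM (median 28.9) contralateral, 17.4 to 80.1 CPM (median 41.3) ipsilateral and 30.4 to 106.7 CPM (median 53.3) equatorial, and was lower after contralateral ICSI (log2 fold change -0.94, SE 0.21, adjusted p = 0.00141). Eif2ak1 fell on the same side (-0.55, adjusted p = 0.0343), so that 2 of the 3 kinases tested were lower, beside 6.06% of all genes. Eif5b, the factor that joins the ribosomal subunits, had 211 to 891 CPM (median 455) contralateral, 319 to 717 CPM (median 584) ipsilateral and 504 to 803 CPM (median 637) equatorial (log2 fold change -0.49, SE 0.12, adjusted p = 0.00226).

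Eif4ebp2, the 4E-binding protein, had 5.54 to 60.6 CPM (median 21.6) contralateral, 6.47 to 51.98 CPM (median 26.8) ipsilateral and 9.19 to 74.1 CPM (median 57.9) equatorial, and both poles lay low (contralateral -1.02, SE 0.28, adjusted p = 0.00964; ipsilateral -0.89, SE 0.30, adjusted p = 0.0585, not called). Eif3c had 27.9 to 270 CPM (median 140), 48.8 to 353 CPM (median 151) and 58.6 to 432 CPM (median 249) in the same order (contralateral -0.73, SE 0.22, adjusted p = 0.0184). Of 14 eIF3 subunits, Eif3c, Eif3a and Eif3f were lower and Eif3i was higher after contralateral ICSI (beside 6.06% and 7.12% of all genes), and none was called after ipsilateral ICSI (6.65%).

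**Figure D2:**
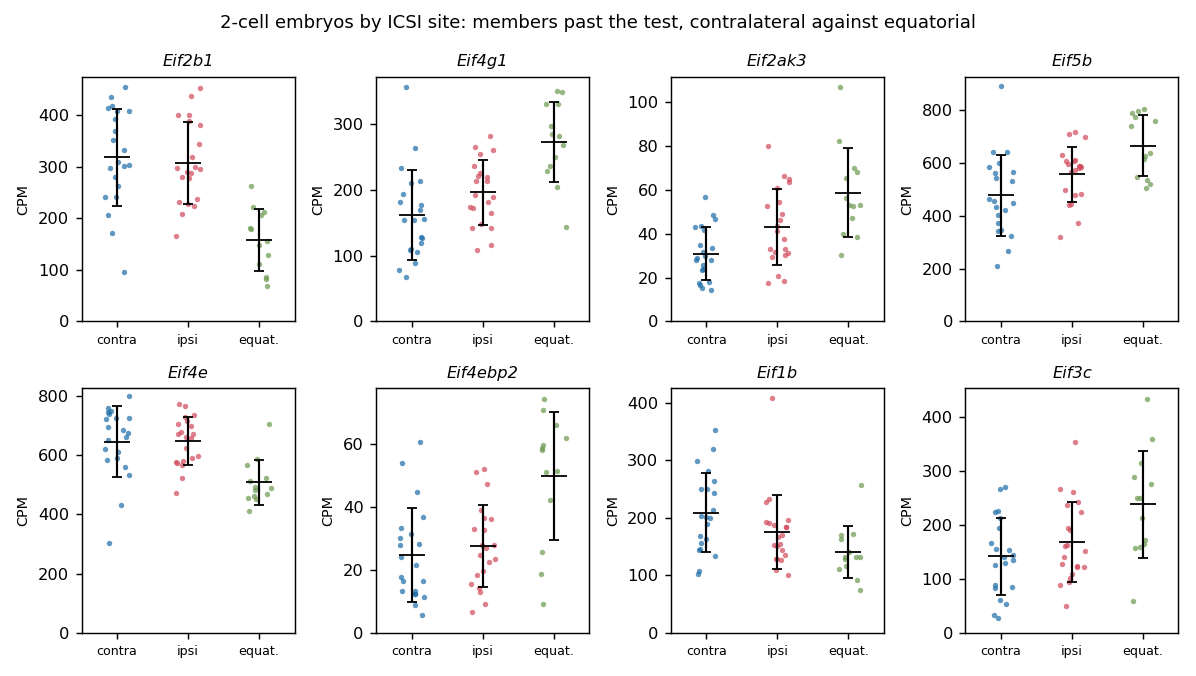
CPM of 8 members in 2-cell embryos after contralateral (n = 21), ipsilateral (n = 21) and equatorial (n = 13) ICSI, 1 point per embryo with the mean and SD in black. Eif2b1, Eif4e and Eif1b sit higher and Eif4g1, Eif2ak3, Eif5b, Eif4ebp2 and Eif3c lower after contralateral ICSI than after equatorial ICSI, with overlap in each.

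After ipsilateral ICSI, 2 further genes were called against equatorial ICSI. Eif4e1b had 53.6 to 212 CPM (median 123) ipsilateral, 89.4 to 251 CPM (median 142) contralateral and 132 to 301 CPM (median 166) equatorial, and 19 of 21 ipsilateral embryos lay below the equatorial median (log2 fold change -0.57, SE 0.15, adjusted p = 0.0143; contralateral -0.31, adjusted p = 0.17). Eif2s1, the eIF2 subunit that the kinases phosphorylate, had 76.6 to 222 CPM (median 148) ipsilateral and 34.4 to 152 CPM (median 113) equatorial (log2 fold change 0.53, SE 0.17, adjusted p = 0.0382). The early zygotic gene Eif1a was not called at any site, with medians of 91.9, 64.6 and 63.3 CPM after contralateral, ipsilateral and equatorial ICSI, and neither were Eif1ax, Eif1ad, Eif4a1 or Eif2s3x.

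Depth moved with the ICSI site: the mean total count per embryo was 2575532 contralateral, 3022462 ipsilateral and 2293032 equatorial, and the mean number of detected genes per library 12018, 12080 and 11461. With both as covariates, 9 members were called between contralateral and equatorial ICSI and 1 between ipsilateral and equatorial ICSI, beside 9.08% and 0.464% of all genes, so that Eif2b4, Eif3a, Eif3c and Eif3f lost their call in the first and Eif4e (adjusted p = 0.208), Eif4e1b (0.444) and Eif2s1 (0.68) in the second. Pairs with counts of the Y-linked Eif2s3y in both sisters were also spread unevenly, 8 of 13 equatorial, 7 of 21 contralateral and 2 of 21 ipsilateral, and the part of this in the site comparisons was not tested. Among the 48 pairs with at most 2% mitochondrial counts in both sisters, contralateral against equatorial ICSI called 7 members (beside 8.48% of all genes), without Eif1b, Eif2ak1, Eif2b4, Eif3a, Eif3f and Eif3i.

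Of the list of other translation genes, 37 were tested in 2-cell embryos, and the share called over all genes was 13.2% for contralateral and 6.65% for ipsilateral against equatorial ICSI. After contralateral ICSI, 4 were higher than after equatorial ICSI (Eef1e1 1.09, Paip2 0.94, Dazl 0.72 and Hbs1l 0.46, log2 fold changes) and 6 lower (Ppp1r15b -0.86, Pabpc1 -0.66, Pabpc4 -0.61, Ppp1r15a -0.59, Eef1d -0.48 and Eef2k -0.33). Pabpc1 and Pabpc4 are poly(A)-binding proteins, Paip2 inhibits them, and both Ppp1r15 proteins direct the phosphatase that reverses eIF2 phosphorylation. After ipsilateral ICSI, 5 were higher, Paip2, Eef1e1, Dazl, Hbs1l and Rps6kb1, and 4 were lower, Pabpc1, Pabpc4, Paip2b and Eef2k. With depth covariates, this comparison called 60 genes higher and 1 lower of all 13141, so at most 1 of the 4 lower calls could remain. Which calls of the list remain under that setting was not tested.

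Sister blastomeres were then compared within the embryo. The letters a and b of sisters are arbitrary, and no gene passed the test between them: edgeR with the embryo as a block called 0 of 52 members and 0 of 9810 genes, while 4 members and 4.73% of genes had an unadjusted p under 0.05, with 0 members called by DESeq2. Divergence was therefore measured as the absolute difference of log2(CPM + 1) between sisters, averaged over 55 pairs, and set beside that of 1272 pairs of non-sister blastomeres of the same site and plate. Among the 50 members with a median of at least 20 counts per blastomere, the median distance of sisters was 0.55, against 0.85 over all 7396 such genes. Members and all genes were not matched for their number of counts, and the part of this in the difference was not tested. Sisters were closer than non-sisters for 44 of the 50 members, where 76.5% of all such genes were, and the median ratio was 0.879 against 0.911.

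Among the 50 members, sisters lay closest for Eif5, the GTPase activator of the initiation complex. The sister with less of it had 519.5 to 996.5 CPM (median 803) and the sister with more had 647 to 1407 CPM (median 865), and no pair was over 2-fold apart. Eif1 (0.15 on the log2 scale) and Eif4g2 (0.18) followed Eif5 (0.14). Sisters lay farthest apart for Eif2b2 (2.08), Eif3e (1.89), Eif3d (1.73), Eif2b3 (1.70), Eif2b5 (1.58) and Eif3g (1.57). Eif3m (2.15) and Eif3l (2.02), with fewer counts, were left out of this order.

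Eif2b2, the beta subunit of eIF2B, had 0 to 75.6 CPM (median 9.42) in the lower sister and 3.01 to 121.8 CPM (median 31.2) in the higher sister. In 39 of 55 pairs the sisters were over 2-fold apart, and in 14 pairs 1 sister had no count. Non-sister blastomeres differed by 2.02 on average, so sisters were not closer than blastomeres of different embryos for this gene. The 6 genes with the largest distances had median counts of 20.5 to 44 per blastomere, and the 3 with the smallest had 815.5 to 1148, so the genes with large distances were also those with few counts, and the part of counting error in the distances was not tested.

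**Figure D3:**
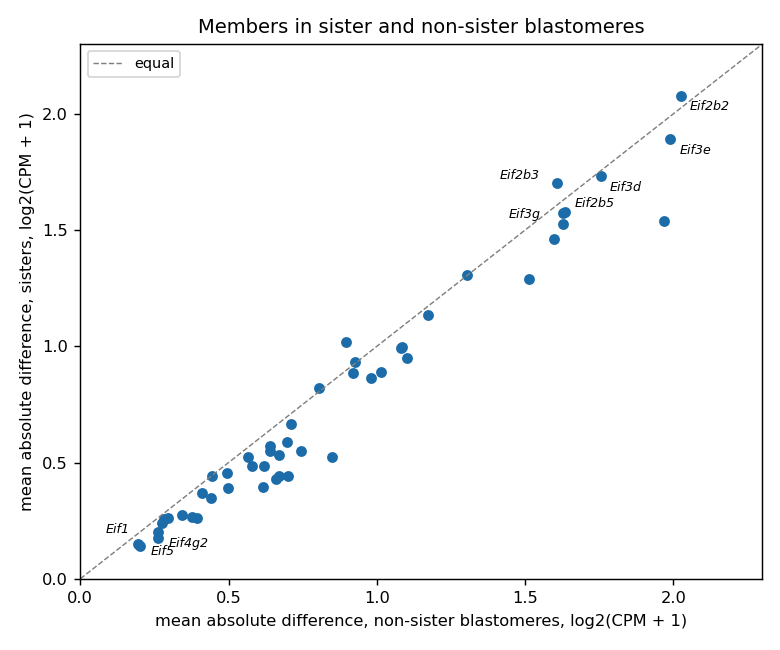
Mean absolute difference in log2(CPM + 1) between sister blastomeres against that between non-sister blastomeres of the same site and plate, 1 point for each of the 50 members with a median of at least 20 counts. Most points lie under the dashed line of equality, and Eif2b2, Eif3e and Eif3d lie at the upper end of both axes.

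Divergence was compared between the sites to ask whether equatorial ICSI sets sisters apart. By limma, 1 of 54 members was called between contralateral and equatorial ICSI, where 0.259% of 13141 genes were (0% more and 0.259% less divergent). This was Eif3k, an outer eIF3 subunit, whose sisters differed by 0.31 on average after contralateral, 0.43 after ipsilateral and 1.02 after equatorial ICSI (contralateral minus equatorial -0.72, SE 0.16, adjusted p = 0.0225). The SDs of these differences were 0.34, 0.28 and 0.82. The largest difference of all pairs, 3.62, was in an equatorial pair and raised that mean. After equatorial ICSI the lower sister had 9.93 to 110 CPM (median 71.1) and the higher sister 36.1 to 163 CPM (median 133), with 3 of 13 pairs over 2-fold apart. After contralateral ICSI the lower sister had 53.7 to 173 CPM (median 87.5) and the higher 77.6 to 182 CPM (median 118.5), with 1 of 21 pairs over 2-fold apart. The call was lost with a pseudocount of 10, without the low-count filter and in the 48 pairs (adjusted p = 0.0566, 0.133 and 0.0712). Equatorial embryos had the lowest mean total count (2293032, against 2575532 contralateral and 3022462 ipsilateral). No depth term was fitted for divergence, and the part of depth in it was not tested. For ipsilateral against equatorial ICSI limma called 0 members and 0.221% of genes (0.00761% more and 0.213% less divergent), and 4 members and 11.8% of genes had an unadjusted p under 0.05. With the poles set against each other it called 0 members and 0 genes, and 1 member and 4.81% of genes had such a p.

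Twin and intact blastocysts were compared to see what development from a single blastomere leaves in these genes. Of 51 members tested, 23 were called, 10 higher and 13 lower in twins, where 42.3% of all 9379 genes were called (20.4% higher and 21.9% lower). DESeq2 called 14 higher and 12 lower, beside 23.6% of the 22689 genes it was run on. Twins and intact blastocysts overlapped for all 51 members tested. Of all 9379 genes, only 0.288% lay wholly higher and 0.16% wholly lower in twins. Twins had deeper libraries, with a mean total count of 1148324 per twin, or 2296647 per pair, against 713718 per intact blastocyst. The 4 epiblast markers (Nanog, Sox2, Pou5f1 and Fgf4) had a median summed level of 323 CPM in twins (227 to 451) and 124.4 CPM in intact blastocysts (24.04 to 277). The 4 primitive endoderm markers had medians of 407 and 304 CPM, the 5 trophectoderm markers 3010 and 3059 CPM, and the 5 oocyte-derived transcripts 552 and 46.8 CPM. Of these last 5, 3 had a median above 0 in twins and 1 in intact blastocysts. Their sum thus rests on few of them, and how much of it was stored oocyte RNA was not tested. The part of these markers in the results was not tested. With total count and detected genes as covariates and twin a alone, 20 members were called, beside 24.07% of all genes, with Eif2s2, Eif2b4, Eif2b5, Eif2ak1 and Eif3d newly called and without Eif5, Eif5a, Eif5b, Eif2b2, Eif2a, Eif4enif1, Eif4a3 and Eif3a. Without the 6 intact blastocysts under 500000 counts, 28 members and 46.1% of all genes were called.

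The scaffold gene Eif4g3 had the smallest adjusted p. It had 30.9 to 89.5 CPM (median 48.3) in twins and 40.7 to 222 CPM (median 110.5) in intact blastocysts, and all 19 twins lay below the intact median (log2 fold change -1.18, SE 0.16, adjusted p = 2.05e-08). Eif4g2, a scaffold that lacks the eIF4E site, was lower too, with 533 to 768 CPM (median 683) against 517 to 1030 CPM (median 839; log2 fold change -0.38, SE 0.08), while Eif4g1 was higher (0.30, SE 0.10, adjusted p = 0.0164). All 3 scaffold genes were thus called, in both directions, where 42.3% of all genes were called.

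Of 14 eIF3 subunits, Eif3c, Eif3j1 and Eif3a were lower in twins and Eif3g was higher, beside 21.9% and 20.4% of all genes. Eif3c had 525 to 737 CPM (median 658) in twins and 470 to 1803 CPM (median 1107) in intact blastocysts (log2 fold change -0.85, SE 0.12, adjusted p = 3.79e-08). Eif3g had 260.98 to 370 CPM (median 308) against 59.01 to 398 CPM (median 202; log2 fold change 0.50, SE 0.11, adjusted p = 0.000297). Eif3j1 had 45.04 to 112 CPM (median 86.3) against 70.5 to 328 CPM (median 120; log2 fold change -0.77, SE 0.15, adjusted p = 3.53e-05).

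The 2 eIF1A genes went opposite ways. Eif1a had 348 to 587 CPM (median 457) in twins and 266 to 828 CPM (median 644) in intact blastocysts, and all 19 twins lay below the intact median (log2 fold change -0.53, SE 0.09, adjusted p = 5.34e-06). Eif1ax had 120 to 230 CPM (median 182) against 24.04 to 247 CPM (median 106.4), and all 19 twins lay above it (log2 fold change 0.54, SE 0.16, adjusted p = 0.00365). The pair Eif1 and Eif1b was split as well. Eif1 had 423 to 599 CPM (median 511) against 487 to 999 CPM (median 646; log2 fold change -0.49, SE 0.09, adjusted p = 3.94e-06), and Eif1b had 53.8 to 97.6 CPM (median 77.5) against 0 to 202 CPM (median 33.5; log2 fold change 0.80, SE 0.26, adjusted p = 0.0104).

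Eif2d, a factor that loads initiator tRNA without the eIF2 complex, was the member with the largest rise in twins. It had 65.9 to 147 CPM (median 94.7) against 0 to 106.6 CPM (median 41.03), with 8 of 19 twins above every intact blastocyst (log2 fold change 1.10, SE 0.19, adjusted p = 3.44e-06). Eif2b2 was higher, at 41.5 to 105.3 CPM (median 66.3) against 0 to 124.6 CPM (median 37.1; log2 fold change 0.75, SE 0.23, adjusted p = 0.00587). Eif2a was lower (-0.42), and neither a kinase nor any of the other eIF2B subunits was called.

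Of the 4 genes tested for eIF5, eIF5A, eIF5B and eIF6, 3 were higher in twins and 1, Eif5b, was lower. Over all genes, 20.4% were called higher and 21.9% lower. Eif5, Eif5a and Eif5b lost their calls with depth covariates and twin a alone. Eif5 had 598 to 920 CPM (median 796) against 192 to 895 CPM (median 456; log2 fold change 0.59, SE 0.12, adjusted p = 7.07e-05). Eif6, which keeps the ribosomal subunits apart, and Eif5a, which helps ribosomes past difficult stretches, had log2 fold changes of 0.35 (SE 0.11, adjusted p = 0.00714) and 0.29 (SE 0.09, adjusted p = 0.00815). Eif5b was lower (-0.72, SE 0.18, adjusted p = 0.000949). The 3 genes called of the 4 for 4E-binding proteins, Eif4ebp1, Eif4ebp2 and Eif4enif1, were all lower. Eif4ebp2 had 44.9 to 110 CPM (median 71.9) against 33.98 to 243 CPM (median 107.4; log2 fold change -0.79, SE 0.16, adjusted p = 6.63e-05).

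In the helicase group Eif4a2 was lower in twins, with 227 to 398 CPM (median 296) against 239 to 527 CPM (median 409; log2 fold change -0.50, SE 0.09, adjusted p = 2.97e-06), and Eif4a3, the helicase of the exon junction complex, was higher (0.38, SE 0.13, adjusted p = 0.0153). Eif4a1 did not move past the test, with 503 to 677 CPM (median 589) against 373 to 867 CPM (median 527; log2 fold change 0.00, SE 0.08, adjusted p = 0.978). Eif4e (0.11, SE 0.12) and Eif2s3x (-0.07, SE 0.11) were not called. In this comparison, Eif4e1b, Eif4e3 and Eif5a2 were under the filter on low counts.

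**Figure D4:**
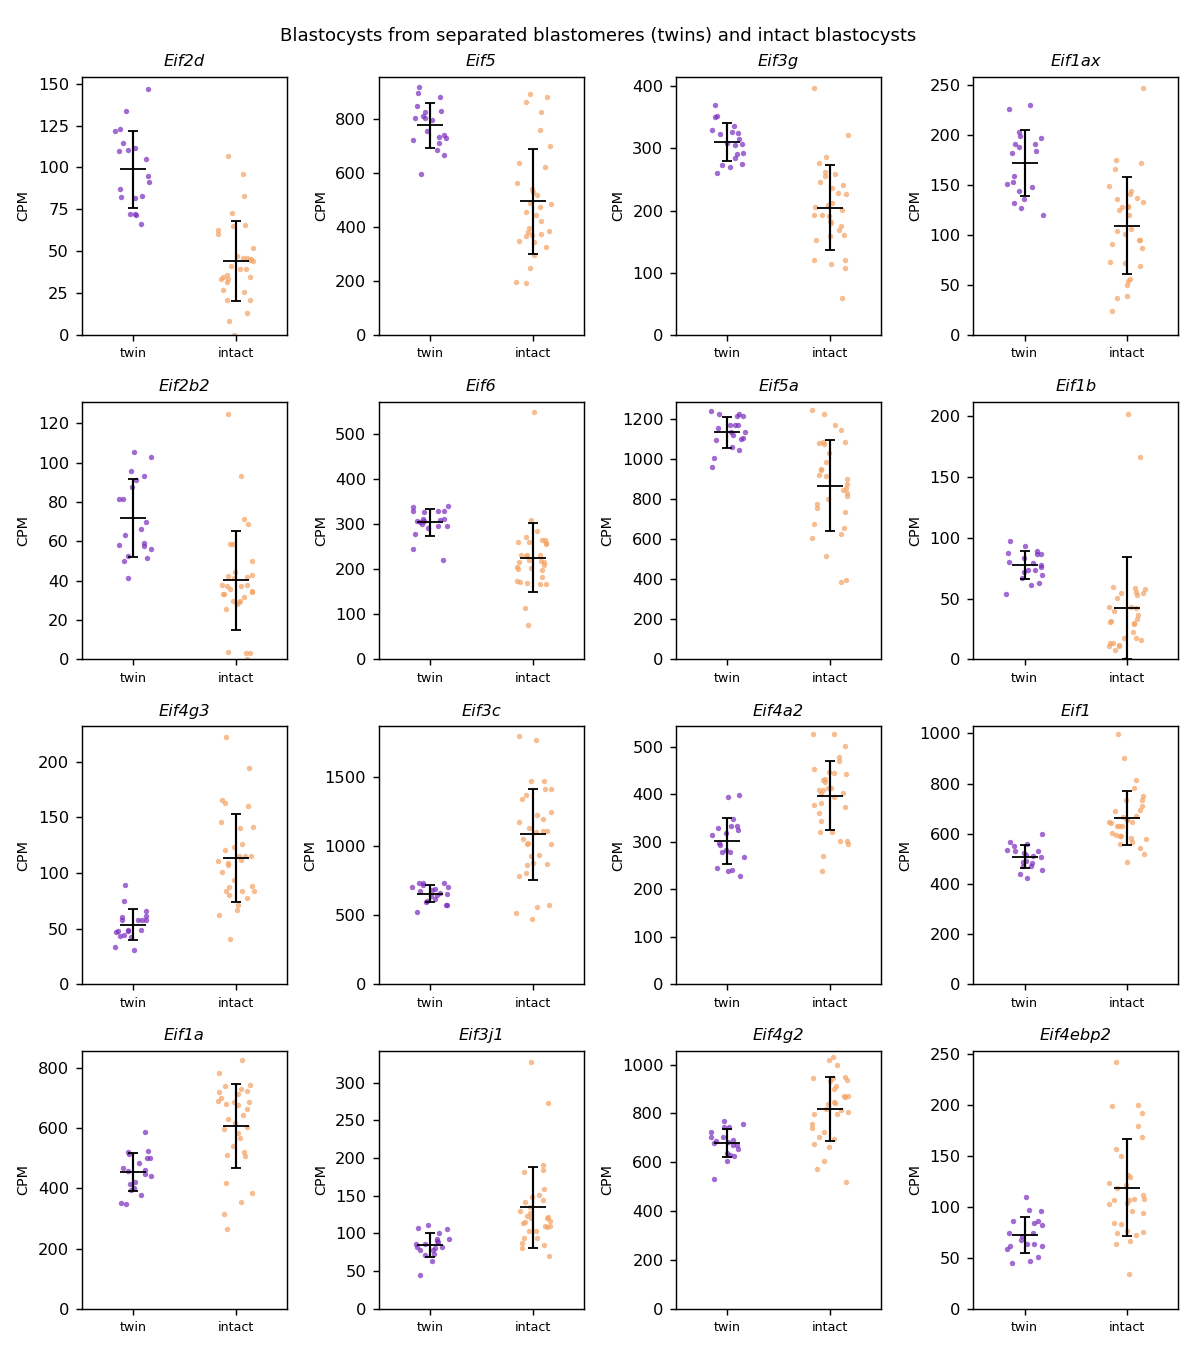
CPM of 16 members in 19 twin pairs (counts of both twins added) and 31 intact blastocysts, 1 point per embryo with the mean and SD in black. The first 8 genes sit higher and the last 8 lower in twins, every panel overlaps, and the intact embryos spread more widely than the twins. Each twin point adds both libraries of a pair (mean 2296647 counts), and each intact point is a single library (mean 713718 counts). The part of depth in the spread was not tested.

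Of the other translation genes, 35 were tested between twins and intact blastocysts, with 3 higher in twins (Mcts2 0.72, Paip2b 0.68 and Mtor 0.48, log2 fold changes) and 13 lower, where 42.3% of all genes were called. The lower ones included the helicase gene Ddx3x (-0.70, SE 0.10, adjusted p = 1.08e-07), the elongation factor genes Eef1b2 (-0.73), Eef1a1 (-0.37), Eef1g (-0.28) and Eef2 (-0.24), Rps6 (-0.51), the ribosomal protein downstream of mTOR, and Pabpc1 (-0.40). The others called lower were Mknk2, Eef2k, Pdcd4, Ppp1r15b, Denr and Larp1.

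By ICSI site, the blastocysts gave no calls. In twins, edgeR called 0 of 53 members in each of the 3 site comparisons, and 0 of 10995 genes. An unadjusted p under 0.05 was reached by 5 members for contralateral against equatorial ICSI (6.62% of all genes), by 3 for ipsilateral against equatorial (3.87%) and by 9 for contralateral against ipsilateral (6.86%). In intact blastocysts it called 0 of 51 members and 0 of 9165 genes in each, with 2, 5 and 7 members at an unadjusted p under 0.05 in the same order (6.86%, 3.69% and 5.7% of all genes). DESeq2 called 0 members in each of these 6 comparisons and at most 6 genes. Eif2b1, which differed at the 2-cell stage, had medians of 127.3, 137 and 157 CPM in twins after contralateral, ipsilateral and equatorial ICSI and of 106.8, 115.7 and 115.003 CPM in intact blastocysts. Whether the effect of the site differed between stages was not tested.

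Eif2s3x and Eif2s3y encode the gamma subunit of eIF2 from the X and the Y chromosome, so Eif2s3y transcripts mark an embryo that received a Y chromosome from the sperm, and an oocyte has none to store. Their promoter windows are shown because the 2 genes are copies of 1 ancestral gene on different chromosomes. The longest stretch they share is 12 bases, in capitals, starting 11 bases after the start in Eif2s3x and 15 bases after it in Eif2s3y.
Eif2s3x, chrX:94212602-94212901, minus strand: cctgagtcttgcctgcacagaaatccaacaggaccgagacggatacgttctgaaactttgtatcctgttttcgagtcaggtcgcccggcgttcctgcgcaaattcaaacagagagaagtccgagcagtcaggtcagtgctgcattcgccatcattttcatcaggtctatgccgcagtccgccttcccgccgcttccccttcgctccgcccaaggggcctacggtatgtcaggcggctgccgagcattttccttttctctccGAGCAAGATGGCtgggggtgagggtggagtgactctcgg
Eif2s3y, chrY:1010345-1010644, plus strand: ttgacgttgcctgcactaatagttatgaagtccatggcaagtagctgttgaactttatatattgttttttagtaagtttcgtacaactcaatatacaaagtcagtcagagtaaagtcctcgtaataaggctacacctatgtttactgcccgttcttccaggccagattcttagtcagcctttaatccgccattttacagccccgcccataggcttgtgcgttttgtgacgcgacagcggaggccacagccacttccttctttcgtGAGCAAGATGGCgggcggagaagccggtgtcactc

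In 33 of 69 blastocysts Eif2s3y had 29 to 292 counts, and in the other 36 it had at most 1, with 35 at 0. Each twin counts as 1 here, and 38 of the 69 are the twins of 19 pairs. All 33 had at least 10 counts of Ddx3y, another Y-linked gene, and 0 of the 36 did. The twins of a pair always matched: in 10 of 19 pairs both had at least 10 counts and in 9 both had fewer. At the 2-cell stage, 17 of 55 pairs had Eif2s3y counts in both sisters, with 11 to 182 counts added, 36 had none, and in 2 pairs 1 sister alone had counts, at most 30. Both sisters had counts in 8 of 13 equatorial, 7 of 21 contralateral and 2 of 21 ipsilateral pairs. No count in a library allows up to 3 counts, so a 2-cell embryo without counts may have had a low level. The Y-linked genes Ddx3y, Kdm5d and Uty summed to at least 12.3 CPM in every 2-cell embryo (median 27.9), also in those without Eif2s3y counts. Unlike Ddx3y in blastocysts, their presence did not tell 2-cell embryos apart, and the reason was not tested.

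**Figure D5:**
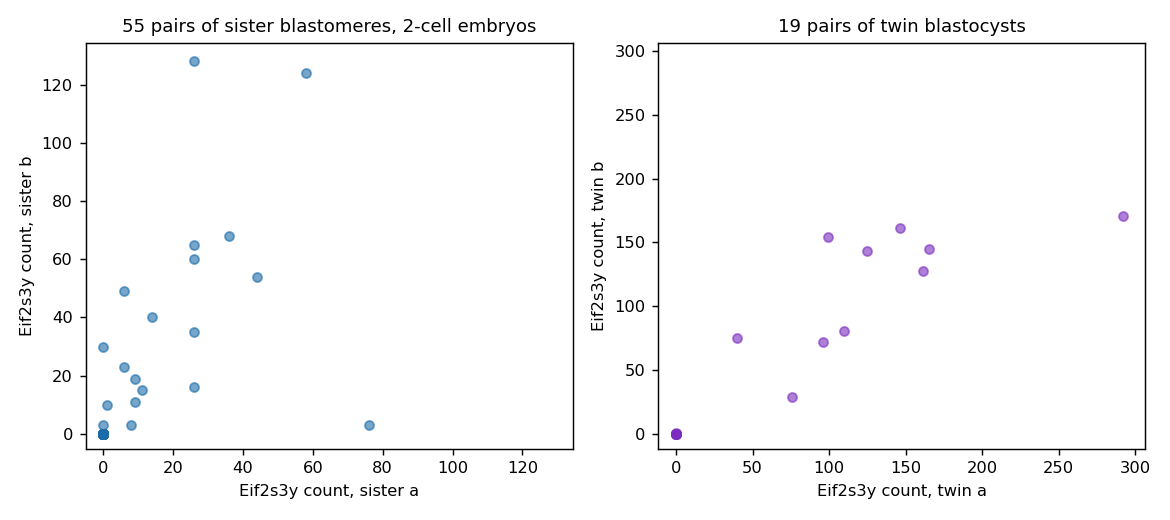
Eif2s3y counts of sister a against sister b in 55 pairs of 2-cell blastomeres (left) and of twin a against twin b in 19 pairs of twin blastocysts (right). Pairs with no count lie on the origin, 36 of them on the left, 2 further 2-cell pairs lie on an axis, and the 9 low twin pairs, at 1 count or fewer, lie at or beside the origin.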

How the data were processed

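Libraries were made from single blastomeres and blastocysts with a full-length, unstranded kit without molecular identifiers. The authors trimmed reads with Trimmomatic 039, checked them with FastQC 0.12.1, kept the first 100 bases of first reads and counted them per gene with STAR 2.7.10b on GRCm38 (mm10) with GENCODE M23, and deposited raw counts. The blastomeres came in a paired-end and a single-end dataset and the blastocysts were single-end. Per the labels all blastocysts were on plate 2 and blastomeres on both plates, so stage is compared beside a plate term that the 2-cell embryos alone inform.

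Pairs with at least 9500 detected genes in both sisters were kept. Counts of sisters or twins were added, CPM used library totals, and TPM used exonic lengths from GENCODE M21, which cover 32158 of 32285 genes. The tests were edgeR 4.0.16 quasi-likelihood tests (TMM factors, filterByExpr, robust) with terms for ICSI site and plate, and limma 3.58.1 for sister divergence on log2(CPM + 1), Benjamini-Hochberg adjusted over all genes, in R 4.3.3. Alternatives used DESeq2 1.42.0, RLE factors, no low-count filter, other sample sets, depth covariates and a rank-sum test with 100000 permutations. For edgeR, SE is the absolute log2 fold change divided by the square root of the test's F statistic. Tables were made in Python 3.11.15. Scripts were tested on simulated data. Intervals and floors cover counting error only.

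Named genes were the called members, for stage the 8 with the largest fold change in each direction, for twins the 8 with the smallest adjusted p in each direction and between 2-cell sites the 8 with the smallest adjusted p, the 6 largest and 3 smallest sister distances, and Eif1a, Eif1ax, Eif1ad, Eif4e, Eif4e1b, Eif2s3x, Eif2s3y and Eif4a1 always. Other genes named were picked after their values were seen. The members, the list of other translation genes and the markers were chosen with earlier results of these data known. Deposited matrices held the same counts as the tables.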

Additional observations from a re-analysis of the deposited data

Results flagged for a closer look

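In intact blastocysts after ipsilateral ICSI, the highest of 8 embryos had 71.5 CPM of Eif2b2, and the other 7 had 28.04 to 44.5 CPM. Its gap to the next embryo was 0.621 of the range of the group, over Dixon's 95% critical value for 8 samples. It was the 1 flag among 64 such tests over 16 members, where chance flags about 1 in 20 groups.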

How the results depend on the processing

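The named results gave 616 values under alternatives, of which 571 kept direction and side of the threshold. Of 366 such values for the 47 named results that were called, 352 kept both, 14 lost the call and 0 changed direction. Genes were named partly for a small adjusted p or a large fold change. These counts leave out the other called members. Of 75 counts of members called, 64 stayed within 1.5 times. Contralateral against equatorial ICSI called 13 members (beside 13.2% of all genes) and 7 in the 48 pairs with at most 2% mitochondrial counts (8.48%). Ipsilateral against equatorial ICSI called 4 members (beside 6.65% of all genes), but 7 without the plate term (7.64%) and 7 on plate 1 alone (8.61%). With DESeq2 it called 7, beside 5.83% of 22570 genes, a wider set than the 13141 of edgeR. It called 9 in all 62 pairs (8.49%), 10 by rank sum (11.7%) and 1 with depth covariates (0.464%). Contralateral against ipsilateral ICSI called 0 members (0% of all genes), and 1 without the low-count filter (6.32%). Sister divergence, contralateral against equatorial ICSI, called 1 member (beside 0.259% of all genes). It called 0 with log2(CPM + 10) (0.0685%), without the filter (0.0521%) and in the 48 pairs (0.0152%). The causes were not tested.

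Among the called members not named for stage, Eif1 (0.28) changed sign with library totals (-0.016, adjusted p = 0.839) and Eif6 (0.42) against twins in place of intact blastocysts (-0.18, adjusted p = 0.0858). The named results that changed sign were uncalled in the reported fit. Against equatorial ICSI they were, for contralateral ICSI, Eif1ad at 0.066 on plate 1 and 0.015 with depth covariates. For ipsilateral ICSI, Eif1a was at -0.032 without the plate term, -0.10 on plate 1, -0.097 with depth covariates, -0.046 in the 48 pairs and -0.12 by rank sum, and Eif2s3x at 0.077 without the plate term, 0.020 with depth covariates and 0.046 by rank sum. Between contralateral and ipsilateral ICSI, Eif1ax was at 0.044 on plate 1 and Eif4e at -0.034 by rank sum. Between twin and intact blastocysts, Eif1ad was at 0.011 with DESeq2, 0.016 with RLE factors and 0.020 without the filter, Eif4e at -0.054 with twin a alone and depth covariates, and Eif4a1 at -0.030 without the ICSI term. At the 2-cell stage against twins in place of intact blastocysts, Eif1ax was at -0.42 (adjusted p = 0.0205). Leaving out the intact blastocysts under 500000 counts was chosen after seeing the data. No paired analysis was possible between ICSI sites, stages or twin and intact blastocysts because these groups share no replicate numbers, and sister blastomeres were compared with the embryo as a block.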
